A study of Arabidopsis thaliana with 6 samples.

Results

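The genes described here loosen the plant cell wall or build and decorate its polysaccharides. They were taken from the array annotation by symbol, as the probe sets with 1 gene whose symbol starts with EXPA, EXPB, EXL, TBL, XTH, PME, CESA, CSL or FLA followed by a number, or by a letter and a number. This rule found 57 of the 22810 probe sets on the array, for 57 of the 13356 genes that the annotation names through a probe set of their own. They are 18 expansin and expansin-like genes (10 EXPA, 4 EXPB, 3 EXLA and 1 EXLB), 22 TBL genes, 9 XTH genes, 7 CSL genes and the pectin methylesterase gene PME61, with 0 CESA, 0 FLA and 0 EXORDIUM-like genes. A further 2 probe sets that each name a pair of expansin genes were left out.

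Expression was measured on 6 Affymetrix ATH1 arrays with RNA from whole soil-grown Arabidopsis thaliana plants, 3 from wild type and 3 from rli. The rli plants are labelled as carrying a T-DNA insertion in RLI, the gene of the RNase L inhibitor (ABCE) protein, which helps to recycle ribosomes and is studied here for its part in RNA stability. The labels place wild type at developmental stage 3.20 and rli at stage 1.14, both with weeks as the unit, and without saying whether these are ages or stage codes. Genotype and labelled stage therefore cannot be told apart in any difference below. Both groups have the source name Co-1 and share a stock code, no other allele or agent is listed, and the labels do not say which RLI locus carries the insertion, how many lines were used or whether plants were pooled. None of the 3 RLI loci in the reference gene table has a named probe set, so the insertion was not checked against its transcript. Of 30 organ and tissue marker genes 5 had a named probe set. The leaf gene RCA, the Rubisco activase, read 6260, 6301 and 5613 in wild type and 4079, 5571 and 4297 in rli, and so was lower on every rli array without passing the test (-0.39 ± 0.20 on the log2 scale, limma adjusted p = 0.30). The root gene PYK10, a beta-glucosidase, overlapped between the groups, at 855.3 to 1137 in wild type and 1076 to 1254 in rli. Of the 4 markers tested 0 changed by the limma test used below, against 6.80% of all tested probe sets. The part of leaf or root share in the results below was not tested. The stem cell gene CLV3 was dim, at 0.437 to 6.809, and the floral, pollen and vascular markers were not analysed here. In RNA of whole plants, fewer cells of a type and less RNA per cell cannot be told apart.

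Growing plant cells are held by cellulose fibrils embedded in hemicelluloses and pectin. Expansins (EXPA, EXPB) loosen the bonds between these polymers without cutting them, and XTH enzymes cut xyloglucan, the main hemicellulose of the primary wall in this species, and can rejoin its ends. CSLC enzymes make the glucan backbone of xyloglucan, CSLA enzymes make mannans, and TBL proteins add acetyl groups to xylan, mannan, xyloglucan or pectin.

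Of the 57 members 33 were bright enough to be tested. Their mean log2 value over the 6 arrays was at or above 4.63, which corresponds to an intensity of 24.7. Below, values are MAS5 intensities as deposited and a difference is the mean log2 value of rli minus that of wild type, ± its standard error from limma (n = 3 in each group). A gene rose or fell if its limma adjusted p, with Benjamini-Hochberg adjustment over 13648 probe sets, was below 0.05. The xyloglucan backbone gene CSLC04 and the expansin-like gene EXLB1 rose in rli, and the mannan synthase gene CSLA03 and the expansin gene EXPA8 fell. These are 2 rises among 33 tested members (6.06%) against 4.27% of all tested probe sets, and 2 falls (6.06%) against 2.53%, or 12.1% called in either direction against 6.80%. At such counts each gene is 3.03 percentage points, and nothing is read from the shares. The median difference was 0.08 over the tested members and 0.04 over all tested probe sets. Brightness differs between probe sets for reasons other than transcript number, so levels are compared only within a gene.

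Wild-type replicate 3 stood apart from the other arrays, with correlations of 0.75 to 0.795 with them over all probe sets against 0.85 to 0.92 among the other 5, and each call is given below also without it. Without that array 5 members rose and 2 fell, against 8.72% and 6.56% of all tested probe sets (15.3% in either direction), and these included the 4 genes named above.

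CSLC04 (AT3G28180) encodes one of the glucan synthases of xyloglucan. It read 100.9, 107.6 and 128.4 on the wild-type arrays and 275.0, 340.7 and 265.2 on the rli arrays. The groups were well separated, with little spread in either. The difference was 1.39 ± 0.20, a 2.61-fold rise (adjusted p = 0.0034), and 1.49 without wild-type replicate 3 (adjusted p = 0.00028). It passed without any 1 of the 6 arrays, with a highest adjusted p of 0.024, and missed the threshold after each array was centred on its median (1.31, adjusted p = 0.059).

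The other CSLC genes, which encode enzymes of the same step, did not pass. CSLC5 (AT4G31590) read 78.92, 68.0 and 42.28 in wild type and 123.9, 89.7 and 115.0 in rli. The rli arrays were all higher, but wild-type replicate 3 was the lowest by a wide margin, and the difference of 0.83 ± 0.28 (adjusted p = 0.11) was 0.57 without it (adjusted p = 0.11). CSLC6 (AT3G07330) overlapped fully between groups, at 42.7 to 51.75 in wild type and 35.47 to 59.49 in rli, with a difference of -0.0020 and a 95% interval from -0.66 to 0.65. CSLC12 was too dim to be tested, at 8.435 to 48.09 in wild type and 21.54 to 44.78 in rli. The within-array ratio of CSLC04 to CSLC6, on which the scaling of an array has no effect, was higher on every rli array than on any wild-type array, by 1.39 on average on the log2 scale. These pairs of genes were chosen after their values were seen, so the ratio is a description.

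The 2 CSLA genes, of the family that makes mannan, went in opposite directions, and only the fall passed. CSLA03 (AT1G23480) read 196.1, 201.7 and 239.0 in wild type and 106.4, 112.7 and 116.2 in rli. Every rli array was far below every wild-type array, and the rli arrays were close together. The difference of -0.92 ± 0.19 corresponds to a level 1.89-fold lower in rli (adjusted p = 0.019). The call was kept without wild-type replicate 3 (-0.83, adjusted p = 0.0085), but missed the threshold without wild-type replicate 1 (adjusted p = 0.056) or 2 (0.055), without rli replicate 1 (0.093), 2 (0.060) or 3 (0.081), and after median centring (0.12). With 1 array left out the difference ranged from -0.98 to -0.83.

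CSLA01 (AT4G16590) read 17.9, 13.43 and 15.33 in wild type and 44.99, 46.48 and 45.14 in rli. The rli arrays were nearly equal and clearly higher, and the wild-type mean was under the filter, so the gene entered the test through its rli values. The difference was 1.56 ± 0.42 (adjusted p = 0.057), and it passed in 4 of 18 alternatives. These were without wild-type replicate 3 (1.55, adjusted p = 0.015), with a variance not trended on intensity (0.0076), with array weights (0.0078) and with the floor (0.049). Without rli replicate 1, 2 or 3 its adjusted p was 0.23, 0.19 and 0.25. The standard error was 0.20 without the trend. The within-array ratio of CSLC04 to CSLA03 was 2.31 higher in rli on the log2 scale, with SDs of 0.033 in wild type and 0.20 in rli. As CSLC04 rose and CSLA03 fell, each with separate groups, this ratio had to separate the groups and adds nothing to those calls. CSLD2 (AT5G16910), a cellulose synthase-like gene needed for root hair growth, read 136.2, 135.5 and 161.6 in wild type and 182.0, 183.5 and 179.8 in rli. The rli arrays were all higher but by little, 0.34 ± 0.18 (adjusted p = 0.34).

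**Figure D1:**
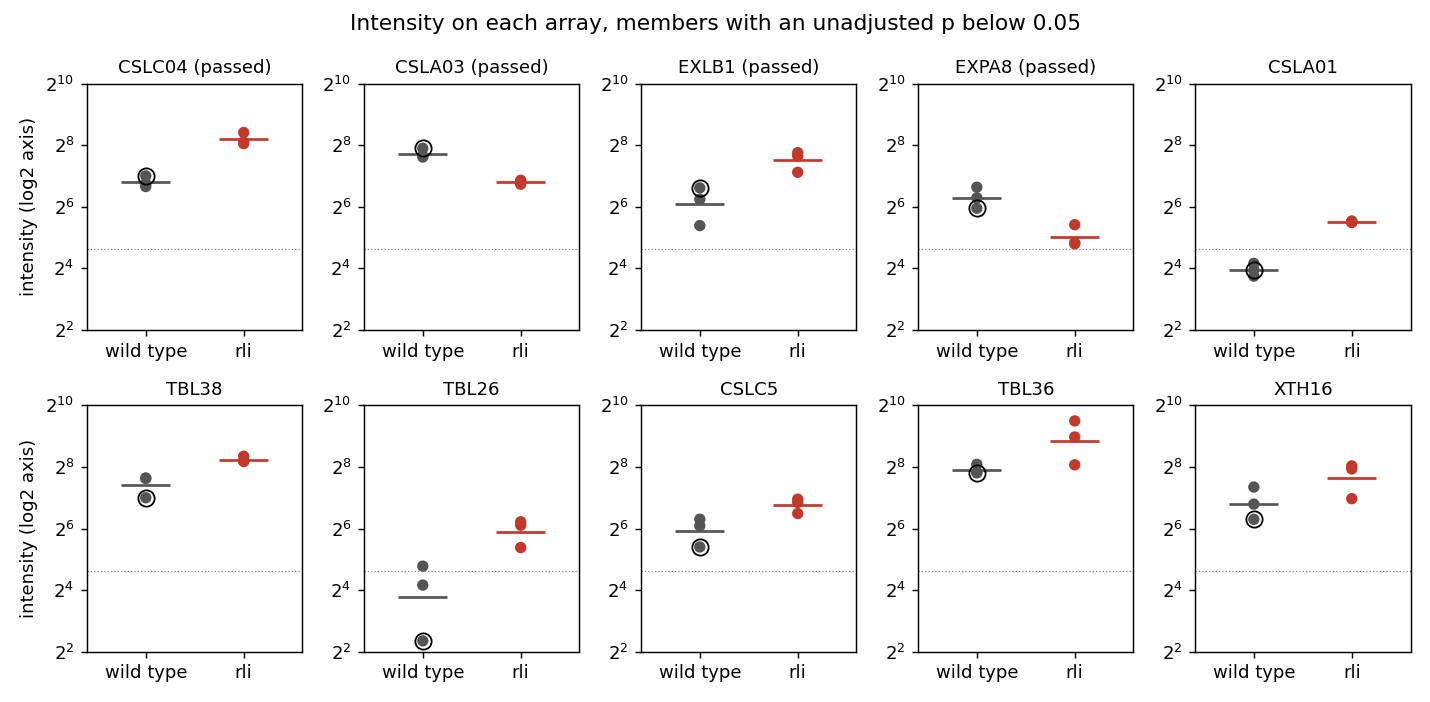
Intensity on each array (log2 axis) for the 10 members with an unadjusted p below 0.05, wild type in grey and rli in red. Points are arrays, lines are the mean of the log2 values, the ringed point is wild-type replicate 3 and the dotted line is the filter level of 24.7. The groups are separate for 8 of the 10 genes and overlap for TBL36 and XTH16.

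Among the expansins, 9 of 18 genes were tested. Of these 1 rose (11.1%, against 4.27% of all tested probe sets) and 1 fell (11.1%, against 2.53%), and nothing is read from these shares. EXPA8 (AT2G40610), an alpha-expansin, read 78.32, 99.46 and 61.94 in wild type and 28.49, 42.76 and 27.79 in rli. All rli arrays lay below all wild-type arrays, at levels not far above the filter. The difference was -1.28 ± 0.30, a level 2.42-fold lower (adjusted p = 0.035), and -1.45 without wild-type replicate 3 (adjusted p = 0.0065). It missed the threshold without wild-type replicate 1 (adjusted p = 0.12) or 2 (0.14), without rli replicate 1 (0.12) or 3 (0.12), and after quantile normalization (0.080), median centring (0.11) or with no filter (0.075).

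None of the other 4 tested alpha-expansin genes passed. EXPA15 (AT2G03090) read 88.47, 87.16 and 88.36 in wild type and 80.75, 52.33 and 72.14 in rli. The wild-type arrays were almost identical and the rli arrays were lower by different amounts, with a difference of -0.39 ± 0.23 (adjusted p = 0.39). EXPA4 (AT2G39700), the brightest EXPA probe set, read 229.7, 165.5 and 156.0 in wild type and 203.0, 129.9 and 171.4 in rli, a difference of -0.13 ± 0.24. EXPA16 stood at -0.60 ± 0.38 and EXPA9 at -0.25 ± 0.55. The groups of all 3 overlapped. The mean of EXPA9 was above the filter level in wild type and below it in rli, so the gene entered the test through its wild-type values. EXPA9 changed sign without wild-type replicate 3 (0.10) or rli replicate 2 (0.08), and EXPA4 without wild-type replicate 1 (0.04) or rli replicate 2 (0.04), so neither had a steady direction.

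EXLB1 (AT4G17030) belongs to the expansin-like genes, whose products share the domains of expansins and whose action on the wall is less well known. It read 75.82, 41.89 and 97.93 in wild type and 139.1, 216.4 and 201.1 in rli. All rli arrays were higher, and the wild-type arrays were spread more than 2-fold. The difference was 1.43 ± 0.32, a 2.69-fold rise (adjusted p = 0.029), and 1.69 without wild-type replicate 3 (adjusted p = 0.0017). It missed the threshold without wild-type replicate 1 (adjusted p = 0.070) or 2 (0.067), without rli replicate 1 (0.053), 2 (0.12) or 3 (0.12), with arrays centred on their medians (0.076) and with a variance not trended on intensity (0.066).

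The EXLA genes did not follow it past the threshold. EXLA1 (AT3G45970) read 388.7, 404.5 and 472.5 in wild type and 370.4, 340.1 and 354.7 in rli. Its groups were separate but close, with a difference of -0.24 ± 0.18 (adjusted p = 0.50). EXLA2 stood at 0.63 ± 0.40 with overlapping groups, and EXLA3, the direct neighbour of EXLA1 in the gene order, was not tested, at 4.95 to 41.51 in wild type and 26.32 to 75.12 in rli. The single beta-expansin tested, EXPB3 (AT4G28250), read 138.9, 127.1 and 133.1 in wild type and 207.6, 114.2 and 204.6 in rli. Its difference of 0.35 ± 0.26 lay within the spread of the rli arrays.

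**Figure D2:**
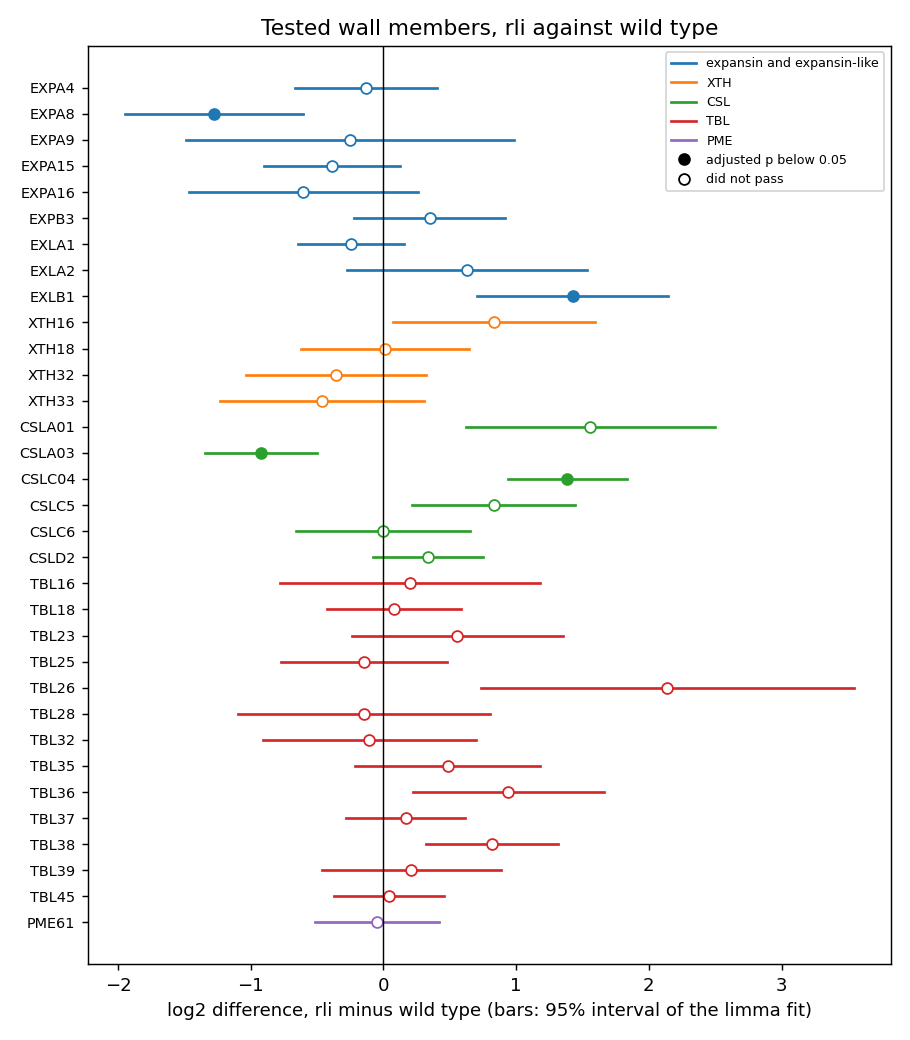
Log2 difference between rli and wild type for the 33 tested members, grouped by family, with the 95% interval of the limma fit. Filled points are the 4 genes with an adjusted p below 0.05, EXPA8 and CSLA03 to the left and EXLB1 and CSLC04 to the right, and TBL26 has the highest difference and the widest interval.

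Of the 9 XTH genes 4 were tested and 0 changed by the limma test, with 1 at an unadjusted p below 0.05. That gene, XTH16 (AT3G23730), read 162.8, 110.9 and 78.68 in wild type and 244.9, 125.4 and 261.9 in rli. The arrays rli 1 and rli 3 were high and rli 2 lay inside the wild-type range, and the difference was 0.83 ± 0.34 (adjusted p = 0.20). XTH32 (AT2G36870), the brightest XTH probe set, read 252.9, 175.3 and 116.1 in wild type and 169.8, 104.3 and 137.9 in rli. Both groups were spread widely and overlapped, with a difference of -0.36 ± 0.30 (adjusted p = 0.57), and XTH33 stood at -0.47 ± 0.34 with overlapping groups.

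XTH18 read 119.9, 108.7 and 127.6 in wild type and 88.46, 188.2 and 103.1 in rli. The array rli 2 was the highest of the 6 and the other rli arrays the lowest, so the mean difference of 0.02 hides a wide spread, with a 95% interval from -0.62 to 0.65. XTH18 and XTH19 are neighbours in the gene order, and XTH19 lies directly beside AT4G30300 (ABCE3), one of the 3 RLI loci. XTH19 was too dim to be tested, at 1.567 to 27.76 in wild type and 16.35 to 26.88 in rli, with the lowest value on wild-type replicate 3. The labels do not say whether ABCE3 is the locus of the insertion.

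The TBL family had 22 members, of which 13 were tested. By the limma test 0 rose and 0 fell, against 4.27% and 2.53% of all tested probe sets. There were 3 at an unadjusted p below 0.05 (23.1%, against 21.1% of all tested probe sets), and 10 of the 13 differences were above 0, against 53.3% of all. With 1 array left out, 7 of the 13 changed sign in at least 1 case, so this count is not a steady one. These 3 genes are TBL26, TBL36 and TBL38.

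TBL26 (AT4G01080) belongs to the group of TBL enzymes that acetylate mannan. It read 27.43, 17.92 and 5.099 in wild type and 68.98, 74.52 and 41.7 in rli. All rli arrays were higher, wild-type replicate 3 was the lowest, and the wild-type mean was under the filter, so TBL26 too entered the test through its rli values. Its difference of 2.14 ± 0.63 (adjusted p = 0.077) had the highest size among the tested members and the widest error, and without wild-type replicate 3 it was 1.43 (adjusted p = 0.019). TBL26 passed in 4 of 18 alternatives. It missed the threshold without rli replicate 1 (limma adjusted p = 0.28), 2 (0.25) or 3 (0.16). The other mannan acetylating members did not pass, with TBL23 at 0.56 ± 0.36 and TBL25 at -0.15 ± 0.28, and both had overlapping groups.

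TBL38 (AT1G29050) read 197.6, 199.9 and 127.9 in wild type and 325.8, 294.1 and 289.3 in rli. The rli arrays were close together and all higher, with a difference of 0.82 ± 0.22 (adjusted p = 0.059) that was smaller but past the threshold without wild-type replicate 3 (0.61, adjusted p = 0.029). TBL38 passed in 5 of 19 alternatives. It missed the threshold without rli replicate 1 (limma adjusted p = 0.22) or 3 (0.17) and after median centring (0.43). TBL36 (AT3G54260) read 271.5, 226.1 and 224.1 in wild type and 721.6, 268.6 and 502.6 in rli. The array rli 2 lay inside the wild-type range. The difference was 0.94 ± 0.32 (adjusted p = 0.12) with all arrays and 1.33 without rli replicate 2 (adjusted p = 0.029). Without rli replicate 1 it was 0.62 (limma adjusted p = 0.39) and without rli replicate 3 it was 0.88 (0.32). TBL36 passed in 3 of 19 alternatives.

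The xylan acetylating members TBL28, TBL32 and TBL35 stood at -0.15 ± 0.42, -0.11 ± 0.36 and 0.48 ± 0.31, all with overlapping groups and none past the threshold. The probe set of TBL32 has the suffix _s_at and may also read related transcripts. Of these genes, TBL28 changed sign without wild-type replicate 3 (0.29), where its intensity of 95.85 was the highest of the 6 arrays, and without rli replicate 2 (0.11), and TBL32 did so without rli replicate 2 (0.21). TBL45 (AT2G30010), the brightest TBL probe set, read 461.4, 407.7 and 421.0 in wild type and 492.2, 455.0 and 386.6 in rli. The rli arrays lay on both sides of the wild-type range. The difference was 0.04 ± 0.18, with a 95% interval from -0.37 to 0.46. TBL16 read 29.09, 31.74 and 95.82 in wild type and 59.0, 47.54 and 47.88 in rli, with wild-type replicate 3 far above all other arrays. Its difference of 0.20 ± 0.44 was 0.75 without that array, -0.11 without wild-type replicate 1 and -0.04 without wild-type replicate 2. The remaining tested genes TBL18, TBL37 and TBL39 lay between 0.08 and 0.21 and had overlapping groups. PME61 (AT3G59010), which removes methyl groups from pectin, read 127.6, 100.2 and 137.9 in wild type and 121.2, 104.1 and 125.5 in rli. The rli arrays lay inside the wild-type range, with a difference of -0.05 ± 0.21.

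Set side by side, the tested expansins had a median difference of -0.24, with 6 of 9 below 0, and the tested TBL genes a median of 0.20. Of all tested probe sets 53.3% had a difference above 0. On each array, the median over a family of the deviation from each gene's wild-type mean was taken. On the rli arrays 1, 2 and 3 it was -0.12, -0.48 and -0.08 for the expansins and 0.40, 0.08 and 0.21 for the TBL genes. The TBL value was thus the higher one on every rli array, by 0.53, 0.56 and 0.29, against 0.12, -0.01 and -0.10 on wild-type arrays 1, 2 and 3. All are taken from the same wild-type means, so the rli arrays are not separate comparisons. The wild-type deviations of each gene average to 0 by construction. The wild-type values are thus held near 0 and are no baseline for the rli values. Both medians include a gene that entered through the group where it is high, TBL26 through rli and EXPA9 through wild type. The order of the families rested on the filter. With all 18 expansins counted the median was 0.49, and with all 22 TBL genes 0.16. The expansin median was 0.04 without rli replicate 2, and the TBL median, which with all arrays is the value of TBL16, was 0.08 without rli replicate 1 and 0.12 without wild-type replicate 2. No test of the difference between the families was made.

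**Figure D3:**
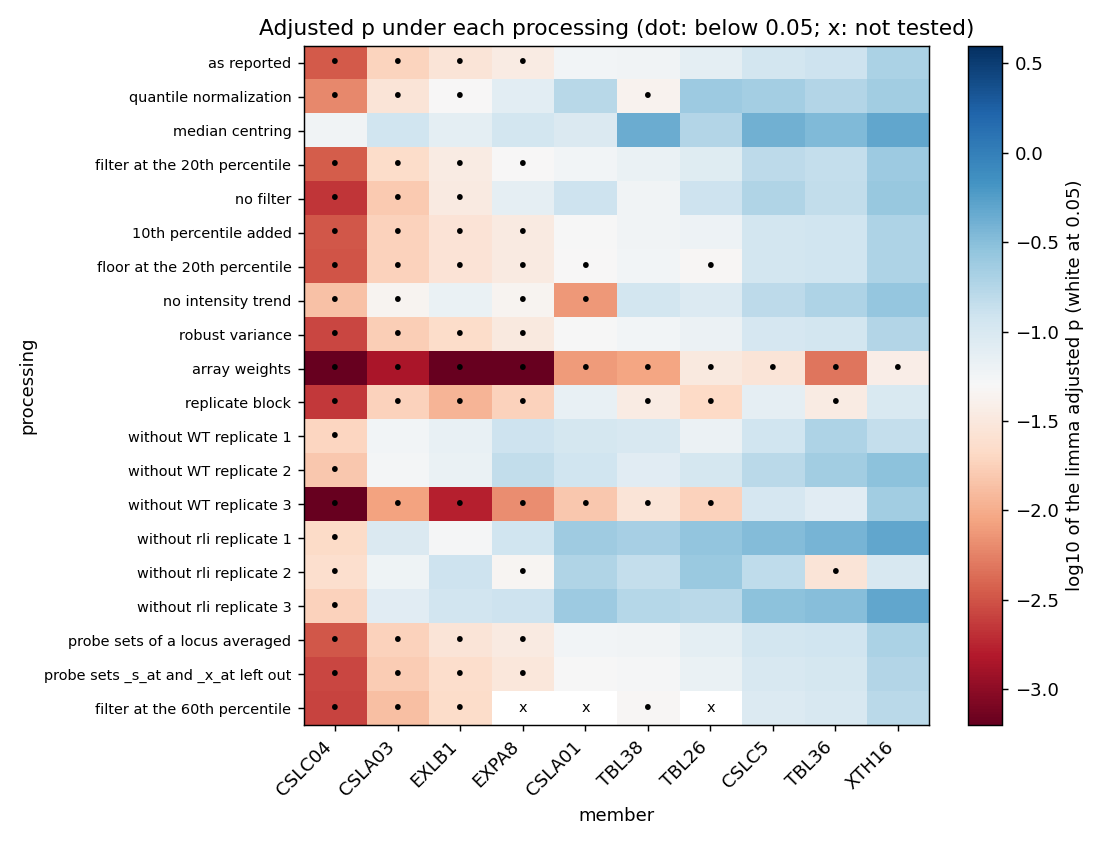
The limma adjusted p (log10 colour scale, white at 0.05) of the 10 members with an unadjusted p below 0.05, under the reported processing and each alternative. Dots mark values below 0.05 and x marks genes that were not tested. CSLC04 has a dot in every row but that of median centring.

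In all, 11 of the 33 tested members had groups that did not overlap (33.3%, against 28.1% of all tested probe sets), 7 with rli higher (21.2%, against 15.2%) and 4 with rli lower (12.1%, against 12.9%), and 10 had an unadjusted p below 0.05 (30.3%, against 21.1%). Of the 33, 8 had such a p with rli higher (24.2%, against 11.7%) and 2 with rli lower (6.06%, against 9.39%). Both the 7 and the 8 include CSLA01 and TBL26, which entered the test through their rli values, and nothing is read from these shares. The members that did not pass had differences of up to 2.14 in size and those that passed began at 0.92, so size alone did not set the calls. The standard error of a gene joins its own spread with a variance trended on intensity. Without that trend CSLA01 passed (limma adjusted p = 0.0076) and EXLB1 did not (0.066). The median SD of the tested members was 0.30 in wild type and 0.34 in rli on the log2 scale.

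The other 24 members, 9 expansins, 9 TBL, 5 XTH and 1 CSL, had a mean below the filter level and were not tested. Among them are EXPA7 and EXPA18, the expansin genes of growing root hairs, at 0.956 to 4.858 and 1.151 to 3.74 in wild type and at 3.158 to 15.74 and 1.341 to 15.56 in rli. TBL30 and TBL34, of the xylan acetylating group, reached 54.71 and 64.1 on wild-type replicate 3 and at most 38.83 on any rli array. The groups overlapped in all 24. That count was not made over all probe sets below the filter, so nothing is read from it. Wild-type replicate 3 held the highest value in 16 of the 24, against 57.3% of all probe sets below the filter, and XTH20 read 85.66 on that array but 7.8 and 7.19 on the other wild-type arrays. Their median SD was 1.61 in wild type and 1.07 in rli, several times that of the tested members.

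**Figure D4:**
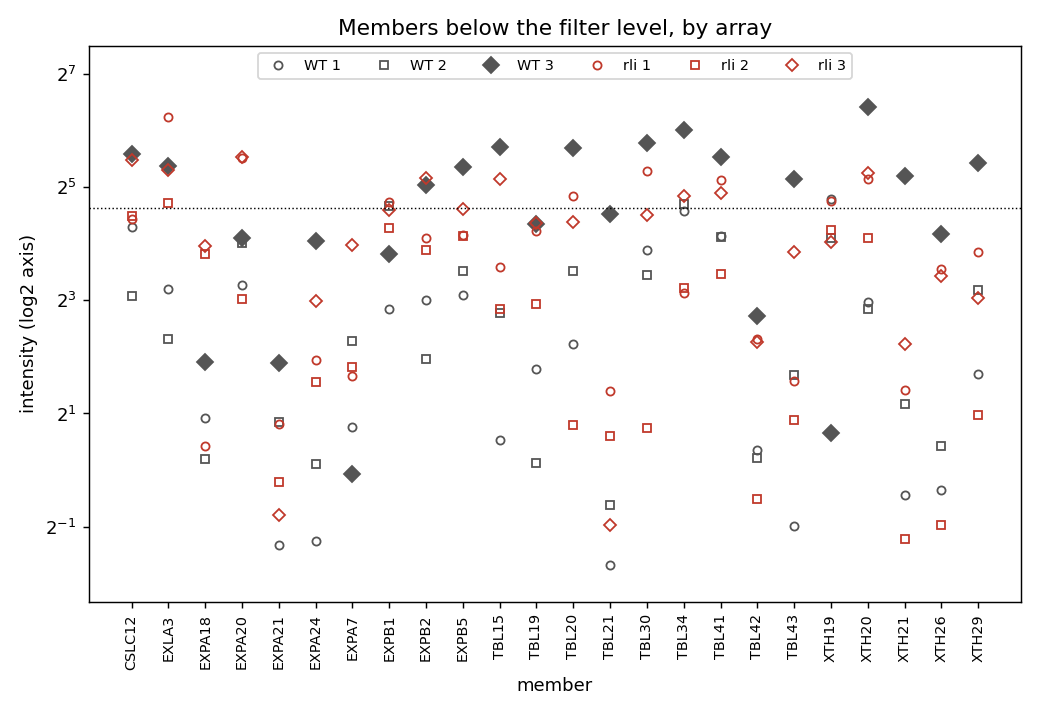
Intensity on each array (log2 axis) for the 24 members whose mean lay below the filter level (dotted line). Wild-type replicate 3, the filled diamond, is the highest point for 16 of them.

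Genes of the same pathways outside the symbol rule were read from 10 lists with 92 loci. Of these 12 had a named probe set and 10 were tested. By the limma test 0 changed, against 6.80% of all tested probe sets. At an unadjusted p below 0.05 there were 0, against 21.1%. With 10 genes nothing is read from these counts. In the tested lists the gene with the smallest p was as follows. THE1, a receptor kinase that senses the state of the wall, stood at 0.38 ± 0.21 (adjusted p = 0.35). The cellulose synthase companion gene CC2 (AT5G42860) stood at -0.22 ± 0.34, the xylan synthesis gene IRX10L (annotated as GUT1) at 0.22 ± 0.19, the acetylation gene AXY9 (AT3G03210) at 0.16 ± 0.26 and the lignin gene HCT at 0.32 ± 0.23. No member of the lists of xyloglucan synthesis, pectin synthesis, structural proteins or secondary wall regulators had a named probe set, and these were not analysed here.

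The reference table gives 6 more loci as relatives through a synonym, on 7 probe sets, 5 of them tested. None passed. XTH27 (annotated as EXGT-A3) read 348.0, 303.2 and 251.9 in wild type and 405.3, 566.4 and 418.6 in rli. The groups were separate, with a difference of 0.62 ± 0.21 (adjusted p = 0.13). PME41 (annotated as ATPMEPCRB) was lower on every rli array, at 160.6 to 195.4 against 232.1 to 316.1, with a difference of -0.53 ± 0.20 (adjusted p = 0.17). CSLC8, the remaining gene of xyloglucan backbone synthesis, stood at -0.03 ± 0.39, and the pair of probe sets of TBL40 disagreed in sign, at -0.92 ± 0.66 and 0.26 ± 0.24.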

How the data were processed

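RNA of 3 wild-type and 3 rli whole-plant samples was hybridised to ATH1 arrays, and groups and replicate numbers come from the sample titles. The authors deposited linear intensity values, 1 per probe set, for which the submitters' processing notes name MAS5 and GCOS (version not given in the sources used here). Their mean without the lowest and highest 2% was 100.01 on every array, and they were only moved to log2. The array medians were not equal, at 35.81, 36.62 and 52.98 on wild-type arrays 1, 2 and 3 and 45.8, 38.23 and 46.35 on rli arrays 1, 2 and 3. No detection calls were used. The 64 control probe sets were left out. Probe sets with a mean log2 value at or above the 40th percentile (4.63) were kept, and limma 3.58.1 in R 4.3.3 (lmFit, eBayes with intensity trend, genotype only) was fitted to all 13648, two-sided, with Benjamini-Hochberg adjustment. Probe sets were named through the platform annotation (14016 listed, 13513 with 1 gene) and loci through the TAIR10.1 gene table, without coordinates. On simulated data with 200 changed genes among 13648, the test recovered 13% of differences of log2 1 and 88.5% of those of log2 2. Of the calls, 0 of 26 and 8 of 185 were false. Fewer genes changed there than the 928 called in the data. The simulated spread of a gene was also equal on every array, whereas wild-type replicate 3 stood apart in the data. Recovery and the share of false calls in the data may therefore differ. Nothing says that the samples come from separate plants, so the p-values may reflect technical spread alone.

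The members and lists were chosen with earlier results of these data known. Values in every array are given for members with an unadjusted p below 0.05, those past the threshold in at least 1 alternative, and the brightest of each family. Other members given by array, and the pairs set in ratio, were chosen after their values were seen. In each list of other wall genes the tested gene with the smallest p is named. Alternatives were no filter or one at the 20th or 60th percentile, centring on the median, quantile normalization, the 10th percentile (2.45) added, a floor at the 20th percentile (9.34), a block by replicate number, weights per array, a robust variance, a variance with no trend, leaving out 1 array at a time, probe sets of a locus averaged, and probe sets with the suffix _s_at or _x_at left out. Except for the filter and probe set alternatives, the same probe sets were tested. Python 3.11.15 with matplotlib 3.10.9 made the plots.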

Additional observations from a re-analysis of the deposited data

How the results depend on the processing

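As reported, 2 members rose and 2 fell. Median centring gave 0 and 0, against 1.66% and 0.769% of all tested probe sets. Quantile normalization gave 3 and 1, against 3.46% and 2.29%. The filter at the 60th percentile gave 3 and 1 (21 members tested), against 5.91% and 4.03%. No filter gave 2 and 1 (57 tested), against 2.15% and 1.18%. The floor gave 4 rises, against 4.41% of all tested probe sets, and array weights 8, against 12.6%. Nothing is read from these counts. Leaving out each array in turn gave 1 to 5 rises and 0 to 2 falls. Over all tested probe sets, against 583 rises and 345 falls, median centring gave 227 and 105, array weights 1719 and 1462, and the fit without the intensity trend 182 falls, while leaving out each array gave 282 to 1190 rises and 102 to 895 falls. The expansin median of -0.24 was 0.33 under a 20th-percentile filter and 0.49 under none, where 14 and 18 instead of 9 expansins were counted, and with 1 array removed lay between -0.30 and 0.043 (without rli replicate 2). The TBL median of 0.20 was 0.11 after quantile normalization, 0.30 with array weights and between 0.083 (without rli replicate 1) and 0.29 (without wild-type replicate 3) with 1 array removed. The sign of 12 of the 33 tested members, none of them called, turned with at least 1 array removed. The cause of the other shifts was not tested. With the replicate number as a block 5 members rose, TBL26, TBL36 and TBL38 in addition, and 2 fell. Of all tested probe sets 5.86% rose and 3.66% fell with that block. The deviations of arrays with the same number correlated at -0.09, 0.33 and 0.32, so the numbers are not shown to pair the samples. For single members, 21 alternative values missed a threshold that the reported value passed, 18 passed where it had not, and 0 reversed a call. With 3 arrays a group, a difference of log2 1 was seldom called in the simulation, and missing the threshold does not show that a gene kept its level. No detection calls were used, so whether dim members were above background was not tested.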
